A study of Mus musculus with 9 samples.

Results

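Lcn2, Serpina3n, Cp, Steap4, Gfap, Aspg and S1pr3 are genes whose transcripts are known to accumulate in reactive astrocytes, most of them together with the proteins of the acute-phase response. These 7 genes, of 20778 gene symbols in the deposited table, were selected on their values in these same 9 libraries, and every comparison of the groups was known when they were chosen. Their levels are therefore given as a description, with no test. The study set mouse GL261 glioma growing in the brain beside 2 culture models of it, by bulk RNA sequencing of whole cell mixtures, with 3 libraries in each of 3 groups. The tumour group came from 50000 mCherry-labelled GL261 cells implanted into the striatum of male, immunocompetent C57BL/6 mice aged 7 weeks, with the brains taken on day 14. Both culture groups held mCherry-labelled GL261 cells, seeded at 1000000 cells per ml, with primary astrocytes, microglia, pericytes and endothelial cells from brains of male C57BL/6 mice aged 6 to 10 weeks. One culture group grew on a flat petri dish (2D culture) and the other in a fibrin 3D-bioink, a printable hydrogel. No treatment is named for any group, and how long the cultures grew is not given in the sources used here. GL261 is 1 established line, the tumour host kept its own blood and immune cells, and the astrocytes were the cells that remained after magnetic beads had taken the other types. The bioink alone was digested before RNA extraction, by collagenase II (600 U/ml, 3 h), so gel and digestion cannot be told apart. The labels name 5 implanted mice but do not tie libraries to mice, donors or culture batches.

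Astrocytes meet injury, inflammation or a nearby tumour with reactive astrogliosis, in which they assemble more GFAP filament and secrete acute-phase proteins that in the rest of the body come mainly from the liver. In both organs cytokines of the IL-6 family signal through the shared receptor chain Il6st to the transcription factor Stat3, and interleukin 1 and tumour necrosis factor signal to NF-kappaB and C/EBP factors. Around a glioma, reactive astrocytes form a dense border, and lipocalin 2, alpha-1-antichymotrypsin and ceruloplasmin are among their best known secreted products.

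The RefSeq table of promoter windows (GRCm38.p6, the same assembly as mm10) held 8 windows for the 7 genes. In the 250 bases before each start, 5 motifs were searched on both strands: the STAT motif TTCNNNGAA, the C/EBP motif TTGCNNAA, the AP-1 motif TGANTCA, the TATA motif TATAAA and the kappaB motif. The 4 stretches here are shown because they carry most of the matches, or, for Serpina3n, the most abundant transcript of the group in the bioink with none, and capitals mark the matches.
Steap4, chr5:7960222-7960456, plus strand: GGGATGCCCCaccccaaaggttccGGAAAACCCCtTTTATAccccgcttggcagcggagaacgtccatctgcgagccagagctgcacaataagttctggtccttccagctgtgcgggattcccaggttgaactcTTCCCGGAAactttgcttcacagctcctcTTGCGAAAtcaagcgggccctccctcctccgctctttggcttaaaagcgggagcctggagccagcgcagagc
Cp, chr3:19956804-19957053, plus strand: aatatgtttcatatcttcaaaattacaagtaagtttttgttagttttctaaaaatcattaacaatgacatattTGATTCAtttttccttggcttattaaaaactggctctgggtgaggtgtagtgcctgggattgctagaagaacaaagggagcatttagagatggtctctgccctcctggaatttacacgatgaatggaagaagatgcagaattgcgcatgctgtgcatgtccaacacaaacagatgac
Serpina3n, chr12:104406458-104406707, plus strand: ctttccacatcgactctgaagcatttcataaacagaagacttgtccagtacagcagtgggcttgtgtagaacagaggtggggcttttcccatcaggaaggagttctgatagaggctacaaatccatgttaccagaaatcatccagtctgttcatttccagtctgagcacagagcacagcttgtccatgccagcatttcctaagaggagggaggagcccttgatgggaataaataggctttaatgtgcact
Lcn2, chr2:32387937-32387966, minus strand: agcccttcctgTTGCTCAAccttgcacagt
The Steap4 stretch stops where its first annotated exon begins, and an exon of a neighbouring predicted gene covers part of it. It held 2 kappaB matches, 250 to 241 and 226 to 217 bases before the start, a TATA match in the minus orientation at 215 to 210, the STAT match TTCCCGGAA at 116 to 108 and a C/EBP match at 87 to 80. The first Cp window held an AP-1 match at 177 to 171, and a second, overlapping Cp window held a C/EBP match at 70 to 63 and overlapping TATA matches at 27 to 20. For Lcn2 only the 30 bases around its C/EBP match, at 216 to 209, are shown, since they lie in an exon of a longer annotated Lcn2 transcript. The windows of Serpina3n, Gfap, Aspg and S1pr3 held none of the 5 motifs. Of all 32851 windows in that table, 7.02% held the STAT motif, 9.56% the C/EBP motif, 6.75% the AP-1 motif, 3.9% the kappaB motif and 12.4% the TATA motif, and a match shows only that these letters are present.

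The values are normalised read counts, rounded to whole numbers by the authors, and they carry no record of sequencing depth. Column totals were lowest in the bioink (13548461 to 13683978), with 15572800 to 15711632 for 2D culture and 16320090 to 16388074 for tumours. Within a group, log2 values correlated across the tested genes at 0.94 to 0.943 in tumours, 0.968 to 0.97 in 2D culture and 0.927 to 0.963 in the bioink, where replicate 1 stood apart, with the lowest estimated weight of the 9 libraries (0.236). For the 7 genes, and for each list count that changes without that library, both values are given. A difference, below, is one of mean log2(value + 1), and a gene is called where limma's Benjamini-Hochberg adjusted p, over 13773 genes with a mean of at least 10, was under 0.05. All 7 genes passed that filter, Steap4 and Aspg through their bioink values alone.

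Lcn2 encodes lipocalin 2, a secreted carrier of iron-binding siderophores. The gene lies at chr2:32384633-32388252 on the minus strand (GRCm38). Its normalised counts were 171, 186 and 206 for the tumours, 30, 20 and 19 for 2D culture, and 13951, 11108 and 12465 for the bioink. The lowest bioink library was far above the highest tumour library, every 2D library was below every tumour library, and no 2 groups overlapped. The means were 188 ± 17.6 in tumours, 23 ± 6.08 in 2D culture and 12508 ± 1422 in the bioink (SD, n = 3 each). The bioink mean was 66.7-fold that of tumours and 544-fold that of 2D culture, and the 2D mean was 8.16-fold below that of tumours. On the log2 scale these are differences of 6.05, 9.05 and -3.00. In whole mixtures, fewer cells of a type and less RNA per cell cannot be told apart, here or in the comparisons that follow. Per kilobase of transcript, Lcn2 ranked number 25 among 19950 genes with a known length in the bioink, at 13670 per kb, but number 5302 in tumours, at 205, and number 10059 in 2D culture, at 25.1.

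Lcn2 is also a granule protein of neutrophils, so the levels of 9 neutrophil markers are given beside it, of which 2 passed the filter. Their summed level was 800 to 950 in tumours, 24 to 45 in 2D culture and 77 to 135 in the bioink, and S100a8 and S100a9, the most abundant neutrophil transcripts, were at 5 or below in every library. In the bioink Ltf, the secondary granule lactoferrin, was listed at 0 in all 3 libraries. Most of the tumour sum was Csf3r, at 868, 743 and 737, which microglia and macrophages also express. The chemokine receptor Cxcr2 went the other way, at 53, 37 and 64 in tumours, 17, 38 and 27 in 2D culture and 107, 63 and 66 in the bioink, where it was called higher than in 2D culture (log2 1.52, adjusted p = 0.00639) and not against tumours (adjusted p = 0.192). After quantile normalization neither of the 2 tested neutrophil markers was called higher in the bioink than in 2D culture, and 1 was called lower. The part of neutrophils in the level of Lcn2 was not tested. Of the genes that bind or take up the protein, the receptor Slc22a17 was listed at 0 in all tumour libraries, at 5, 0 and 0 in 2D culture and at 3, 8 and 4 in the bioink, and Mmp9, which lipocalin 2 binds and protects, did not exceed 14 in any library. Lrp2 (megalin), an endocytic receptor, was the one of 4 such genes that passed the filter. It rose from 34.3 ± 10.6 in tumours to 173 ± 41.4 in 2D culture (log2 2.31, adjusted p = 0.000168), and in the bioink it was at 38.3 ± 7.09, called lower than in 2D culture (log2 -2.13, adjusted p = 0.000286) and not called against tumours.

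**Figure D1:**
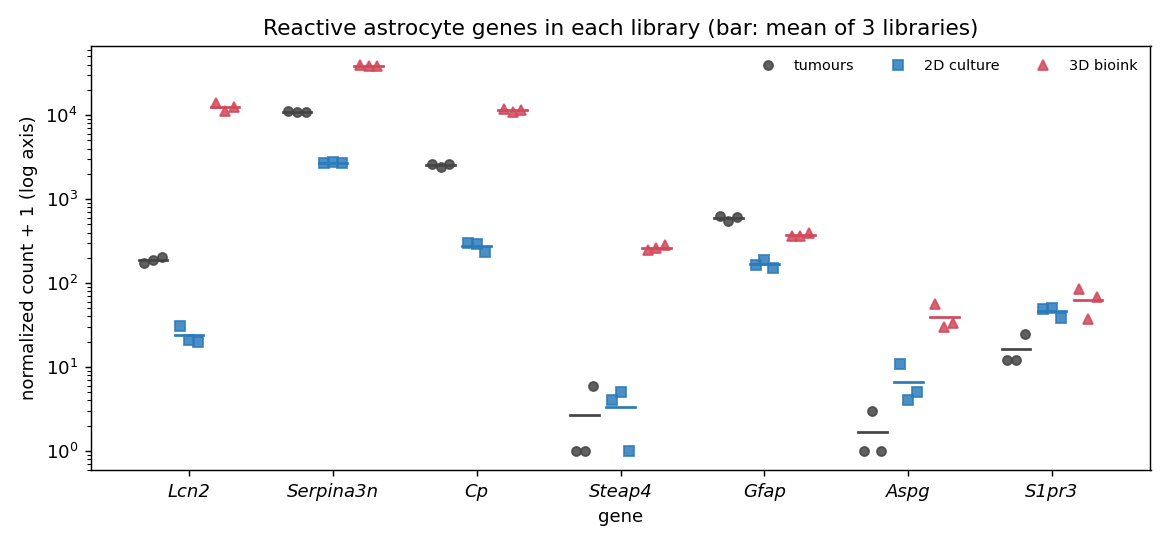
Normalised count plus 1 (log axis) of the 7 genes in each of the 9 libraries, with a bar at the mean of the 3 libraries of a group. Lcn2, Serpina3n, Cp, Steap4 and Aspg have their 3 bioink libraries above all others, Gfap has its tumour libraries highest, and S1pr3 overlaps between 2D culture and the bioink.

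Serpina3n encodes a secreted inhibitor of serine proteases, a mouse counterpart of human alpha-1-antichymotrypsin (chr12:104406729-104414329, plus strand, GRCm38). Its counts were 11253, 10810 and 10776 in tumours, 2696, 2757 and 2710 in 2D culture, and 39341, 38679 and 38541 in the bioink. The libraries of each group lay close together and no groups overlapped. The mean of 38854 ± 428 in the bioink was 3.55-fold that of tumours (10946 ± 266) and 14.3-fold that of 2D culture (2721 ± 31.9), and the 2D mean was 4.02-fold below that of tumours. At 18820 per kb in the bioink it ranked number 13 of all genes with a known length, and at 5303 per kb in tumours number 189, the highest level of the 7 genes in both. In 2D culture it was also the highest of the 7, at 1318 per kb.

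The Serpina3 genes lie in a cluster of close copies, whose reads can be shared or split in counting, so the values of the paralogs are uncertain. Of 10 paralogs, 9 were in the table and 6 passed the filter. In 2D culture against tumours 1 was called higher and 3 lower, where 27.3% of all tested genes were higher and 27.0% lower. Comparing bioink with tumours, 4 were higher and 2 lower (27.1% and 37.3% of all tested genes), and with a filter mean of 50 these counts turned to 1 and 2. Comparing the cultures, all 6 were higher in the bioink (27.0% of all tested genes were, and 32.2% lower), or 3 of those tested with the filter at 50. Serpina3c, Serpina3i and Serpina3k passed the filter through their bioink values alone, so their place among the 6 already depended on the bioink. Serpina3m was at 11, 0 and 11 in tumours, 40, 40 and 55 in 2D culture and 296, 299 and 288 in the bioink. It was the one called higher in 2D culture than in tumours (log2 3.12, adjusted p = 0.00901). Serpina3g and Serpina3f, both inhibitors known from activated lymphoid and myeloid cells, went the other way, with tumours highest. Serpina3g was at 982, 1188 and 1230 in tumours, at 3, 0 and 0 in 2D culture and at 9, 53 and 43 in the bioink, lower than in tumours by a log2 difference of -5.30 (adjusted p = 0.00011). Serpina3f was listed at 0 in all 2D libraries, against 420, 411 and 433 in tumours and 28, 31 and 46 in the bioink. Serpina3c was at 1 in each tumour library, listed at 0 in each 2D library and at 91, 56 and 48 in the bioink. The target proteases were nearly missing from the cultures: Gzmb, granzyme B, was at 265, 224 and 250 in tumours and listed at 0 in all 6 culture libraries, and Ctsg, cathepsin G, was listed at 0 in all 9.

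Cp encodes ceruloplasmin, a copper-carrying ferroxidase that oxidises iron as it leaves the cell (chr3:19957054-20009145, plus strand, GRCm38). Its counts were 2614, 2423 and 2638 in tumours, 296, 288 and 231 in 2D culture, and 11721, 10778 and 11628 in the bioink. Bioink libraries were highest, 2D libraries lowest, and no groups overlapped. The bioink mean of 11376 ± 520 was 4.45-fold that of tumours (2558 ± 118) and 41.9-fold that of 2D culture (272 ± 35.4), while 2D culture was 9.42-fold below tumours. The log2 differences were 2.15, 5.39 and -3.24. Per kilobase Cp ranked number 222 in the bioink, at 2780 per kb, and number 2108 in tumours, at 625.

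Steap4 encodes a metalloreductase that reduces iron and copper at the membrane (chr5:7960457-7982213, plus strand, GRCm38). It was listed at 0, 0 and 5 in tumours and at 3, 4 and 0 in 2D culture, and stood at 248, 259 and 281 in the bioink. Tumours and 2D culture overlapped near 0, and every bioink library was far above them. With a pseudocount of 1 the log2 difference was 7.18 against tumours and 6.60 against 2D culture, and with a pseudocount of 10 it was 4.57 and 4.48, so its size is set by the pseudocount. Its mean of 263 ± 16.8 in the bioink, or 83.2 per kb, was rank 7935, below Gfap at 143 per kb. Its promoter, printed above, was the one with STAT, C/EBP and kappaB matches together.

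Of 15 other genes of iron and copper handling, 12 were tested. In 2D culture against tumours 4 were higher and 5 lower (6 and 3 after quantile normalization, 5 and 5 without bioink replicate 1), where 27.3% and 27.0% of all tested genes were. In the bioink against tumours 7 were higher and 3 lower (27.1% and 37.3%), and in the bioink against 2D culture 7 and 2 (27.0% and 32.2%), which became 9 and 1 at equal column sums and 6 and 3 without bioink replicate 1. Transferrin, Trf, the iron carrier of plasma and brain, had the same order of groups as Cp. Its counts were 5882, 6402 and 6166 in tumours, 574, 559 and 699 in 2D culture and 9927, 11075 and 11016 in the bioink, and all 3 comparisons were called, with log2 differences of -3.34 in 2D culture and 0.79 in the bioink against tumours, and 4.13 between the cultures (adjusted p = 1.55e-09, 2.68e-05 and 1.13e-09). The transferrin receptor Tfrc rose in both cultures over tumours, by log2 2.67 in 2D culture and 2.72 in the bioink. Between the cultures it was not called as deposited (adjusted p = 0.576), but was called higher in the bioink after quantile normalization (log2 0.28, adjusted p = 0.0251) and at equal column sums (log2 0.25, adjusted p = 0.0236). The ferritin heavy chain Fth1, which stores iron, fell in both, from 22461 ± 255 in tumours to 7115 ± 392 in 2D culture and 10492 ± 579 in the bioink. Of the other STEAP reductases, Steap3 was at 339 ± 46.4, 613 ± 66.3 and 718 ± 44.3 in tumours, 2D culture and bioink, called higher in both cultures than in tumours. Between the cultures Steap3 was not called as deposited (adjusted p = 0.137) but was called higher in the bioink under each other scaling (0.0138 to 0.0329). Steap1 was lowest in the bioink, at 70.7 ± 22.7 against 117 ± 10.2 in tumours (adjusted p = 0.0215). That call was lost in 7 of the alternatives run (adjusted p = 0.0518 to 0.106), among them leaving out tumour replicate 1, tumour replicate 2, bioink replicate 2 or bioink replicate 3. The copper pumps Atp7a and Atp7b, which load ceruloplasmin with copper, were called higher in the bioink than in tumours, by log2 1.48 and 1.69.

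Gfap encodes the glial fibrillary acidic protein, the classical filament of reactive astrocytes (chr11:102887336-102900912, minus strand, GRCm38). Unlike the 4 genes above it was highest in tumours. Its counts were 625, 553 and 603 in tumours, 163, 187 and 149 in 2D culture, and 367, 362 and 395 in the bioink. The groups did not overlap, with the bioink between the other 2. The bioink mean of 375 ± 17.8 was 2.25-fold that of 2D culture (166 ± 19.2) and 1.58-fold below that of tumours (594 ± 36.9), log2 differences of 1.17 and -0.66. The difference from tumours was between -0.71 and -0.40 over the other settings run.

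Set against Gfap in the same library, Lcn2, Serpina3n and Cp were each higher in the bioink than in both other groups. Against tumours this follows from the counts already given, since Gfap itself was lower in the bioink than in tumours. The ratio of Lcn2 to Gfap was 0.317 ± 0.0378 in tumours, 0.140 ± 0.0399 in 2D culture and 33.4 ± 4.00 in the bioink. For Serpina3n it was 18.5 ± 0.932, 16.5 ± 1.72 and 104 ± 5.46, so that tumours and 2D culture overlapped, and for Cp it was 4.31 ± 0.113, 1.64 ± 0.156 and 30.4 ± 1.36. By the same ratio Steap4 and Aspg were also highest in the bioink. S1pr3 was highest in 2D culture, at 0.270 ± 0.0232, against 0.0258 ± 0.0122 in tumours and 0.166 ± 0.0648 in the bioink. These are ratios of counts, not of molecules per length, and they describe genes selected on these contrasts.

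Other filament genes split, with 7 of 11 tested and all 7 called in 2D culture against tumours, 3 higher and 4 lower, where 54.3% of all tested genes were called. Against tumours 4 were higher and 1 lower in the bioink (64.4% of all tested genes called), and between the cultures 3 were higher and 4 lower in the bioink (59.2% called). Vimentin, Vim, the partner of Gfap in astrocyte filaments, rose in 2D culture over tumours (67320 ± 2230 against 43856 ± 1661, log2 0.62, adjusted p = 4.23e-06). In the bioink it was at 45698 ± 1421, not called as deposited (adjusted p = 0.328) and called higher than tumours at a log2 difference of 0.22 to 0.32 under the 3 other scalings. Synemin, Synm, which joins these filaments, was also highest in 2D culture, at 1265 ± 35.6 against 119 ± 27.7 in tumours and 755 ± 118 in the bioink. The keratins Krt8 and Krt18, filaments of simple epithelia, had the bioink as the highest group: Krt8 was at 430 ± 43.0 in tumours, 125 ± 13.1 in 2D culture and 5989 ± 529 in the bioink (log2 3.80 against tumours, adjusted p = 4.45e-09). Peripherin, Prph, fell from 11696 ± 185 in tumours to 4121 ± 112 in 2D culture and 2705 ± 119 in the bioink.

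Aspg encodes an asparaginase, an enzyme that cleaves asparagine, and lies on the same chromosome as Serpina3n (chr12:112106679-112127559, plus strand, GRCm38). It was listed at 0, 2 and 0 in tumours, and stood at 10, 3 and 4 in 2D culture and 55, 29 and 32 in the bioink. The 3 groups did not overlap, but the tumour and 2D values are only a few normalised counts. Bioink replicate 1 was the highest, and without it the bioink mean was 30.5 in place of 38.7 ± 14.2. The log2 difference from tumours was 4.72 (4.45 without that library) and lay between 2.16 and 5.46 over the settings run. Of 5 enzymes of asparagine and glutamine metabolism, Asns, which makes asparagine, rose in 2D culture (log2 0.45) and fell in the bioink (log2 -0.77) against tumours, with adjusted p = 3.48e-05 and 7.77e-07. Asrgl1, another asparaginase, was called lower than tumours in both cultures (665 ± 37.3 in 2D culture and 558 ± 96.2 in the bioink, against 1029 ± 80.2). In all, 3 of the 5 were higher and 1 lower in 2D culture against tumours (4 and 1 without bioink replicate 1), and 2 and 2 in the bioink against tumours. Between the cultures they were 1 and 2 (2 and 2 under each other scaling, 1 and 3 without bioink replicate 1). Of all tested genes 54.3%, 64.4% and 59.2% were called in these comparisons.

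S1pr3 encodes a G protein-coupled receptor for the lipid sphingosine 1-phosphate (chr13:51408639-51422797, plus strand, GRCm38). Its counts were 11, 11 and 24 in tumours, 48, 50 and 37 in 2D culture, and 84, 36 and 67 in the bioink. Every culture library was above every tumour library, and the 2 cultures overlapped. The means were 15.3 ± 7.51, 45 ± 7.00 and 62.3 ± 24.3, and the bioink mean without replicate 1 was 51.5. The log2 difference between bioink and 2D culture, 0.39, was 0.14 without that library and -0.17 after quantile normalization. The receptors S1pr1 and S1pr2 were not higher in the cultures than in tumours. S1pr1 was highest in tumours, at 138, 109 and 150, against 42, 46 and 49 in 2D culture and 88, 80 and 66 in the bioink. It was called lower in 2D culture than in tumours (log2 -1.50, adjusted p = 0.00028), and its lower call in the bioink (log2 -0.75, adjusted p = 0.0143) was lost at equal column sums (adjusted p = 0.082) or without bioink replicate 3 (adjusted p = 0.054). S1pr2 was at 1239 ± 6.11 in tumours, 1190 ± 22.1 in 2D culture and 1071 ± 136 in the bioink, where its lower call against tumours (adjusted p = 0.0499) was lost under each other scaling (0.611 to 0.697) and when any library but bioink replicate 1 was left out (0.0683 to 0.159). Spns2, the exporter of the lipid, fell in both cultures, from 129 ± 20.5 in tumours to 16.3 ± 2.08 in 2D culture and 46.0 ± 10.0 in the bioink, and Sphk1, a kinase that makes it, was at 320 ± 20.7 in tumours, 319 ± 34.0 in 2D culture and 378 ± 76.0 in the bioink. As deposited Sphk1 was not called, but in the bioink it was called higher than tumours after quantile normalization, at equal column sums, with libraries weighted or without bioink replicate 1 (adjusted p = 0.0125 to 0.0361), and higher than 2D culture under the last 3 of these (0.00266 to 0.0375). Of 14 genes of this pathway 12 were tested, of which 2 were higher and 3 lower in 2D culture against tumours, where 54.3% of all tested genes were called. Between the cultures, where 59.2% were called, 5 were higher and 2 lower in the bioink (2 and 2 after quantile normalization, 7 and 4 with libraries weighted, 5 and 3 without bioink replicate 1). In the bioink against tumours, where 64.4% were called, 3 were higher and 5 lower. These counts turned to 6 and 1 at equal column sums and to 4 and 4 without bioink replicate 1, and the 8 calls fell to 5 without tumour replicate 3 and to 4 without bioink replicate 3.

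Placed side by side, 5 of the 7 genes separated all 3 groups, in 3 different orders. Lcn2, Serpina3n and Cp ran from bioink through tumours to 2D culture without overlap, an order held by 529 genes, or 3.84% of those tested. Gfap ran from tumours through bioink to 2D culture, as did 6.06% of tested genes, and Aspg from bioink through 2D culture to tumours, as did 6.33%. The orders that none of the 7 had were held, also without overlap, by 6.47%, 8.29% and 4.23% of tested genes. Separation of all 3 groups was thus common among all tested genes. In Steap4 tumours and 2D culture did not separate, and in S1pr3 the 2 cultures did not. In 2D culture against tumours 2 of the 7 genes were higher and 4 lower without overlap, where 32.2% and 31.7% of all tested genes were. In the bioink against tumours 6 were higher and 1 lower (28.7% and 38.9% of all tested genes), and in the bioink against 2D culture 6 were higher and 0 lower (31.5% and 35.6%). The genes were selected on these contrasts, so these counts describe the choice. The median log2 difference of the 7 was -1.83, 2.15 and 3.84 in the 3 comparisons, where that of all tested genes was 0.01, -0.11 and -0.02. The comparisons share libraries, so they are not independent of each other. Without bioink replicate 1 the difference between bioink and tumours was 5.97 for Lcn2, 1.82 for Serpina3n, 2.13 for Cp, 7.22 for Steap4, -0.65 for Gfap, 4.45 for Aspg and 1.71 for S1pr3. Between bioink and 2D culture it was 8.97, 3.83, 5.37, 6.64, 1.19, 2.38 and 0.14 in the same order of genes.

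**Figure D2:**
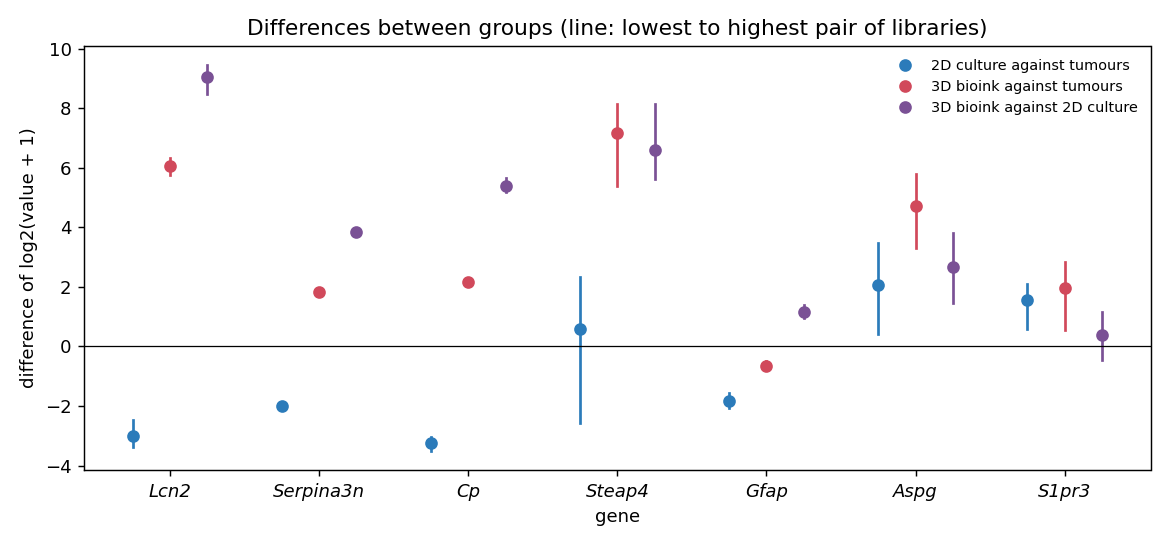
Difference of mean log2(value + 1) between groups for the 7 genes, with a line from the lowest to the highest difference between any library of one group and any of the other. Lcn2 has the widest gap between the cultures, at 9.05, and the lines of Steap4 in 2D culture against tumours and of S1pr3 between the cultures cross 0.

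Whether the other genes of the reactive astrocyte state went with these 7 was asked of 31 genes known from the same literature: 6 more pan-reactive genes, 13 typical of astrocytes after bacterial lipopolysaccharide (LPS) and 12 typical of them after ischaemia. They were not among the 7, and 29 were tested. In 2D culture against tumours 8 rose and 15 fell, in the bioink against tumours 9 rose and 12 fell, and in the bioink against 2D culture 14 rose and 5 fell (8 and 15, 10 and 13, and 15 and 5 without bioink replicate 1). For the bioink against tumours, 12 rose and 12 fell after quantile normalization and at equal column sums. At equal upper quartiles 11 rose and 12 fell there. Quantile normalization gave 8 and 14 in 2D culture against tumours, and equal column sums gave 15 and 4 between the cultures. Among all tested genes, 54.3% were called in the first comparison (27.3% higher and 27.0% lower), 64.4% in the second (27.1% and 37.3%) and 59.2% in the third (27.0% and 32.2%). The medians of the 29 were log2 -0.55, -0.12 and 0.40.

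The pan-reactive genes were mixed. Osmr, the oncostatin M receptor, had the order of Lcn2: 956, 971 and 1086 in tumours, 725, 661 and 672 in 2D culture and 2367, 2323 and 2497 in the bioink (log2 1.25 in the bioink against tumours, adjusted p = 3.15e-07). Cd44, a hyaluronan receptor, rose in both cultures, to 6345 ± 132 and 8370 ± 122 from 4822 ± 34.8. Cxcl10, an interferon-induced chemokine, fell in both, from 14432 ± 354 in tumours to 623 ± 20.5 in 2D culture and 1012 ± 327 in the bioink, and Timp1, a metalloproteinase inhibitor, was called in no comparison (adjusted p = 0.274 to 0.859). The small heat shock protein Hspb1 rose in both cultures over tumours, with log2 differences of 2.02 and 2.17.

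The LPS-type genes were lower in both cultures, with 9 of 12 tested genes called lower and 1 higher in each culture against tumours, and medians of log2 -4.32 in 2D culture and -2.37 in the bioink. Of all tested genes 27.0% were lower in 2D culture and 37.3% in the bioink. The LPS-type genes include Gbp2, an interferon-induced GTPase, Psmb8, an immunoproteasome subunit, and the class I molecules H2-D1 and H2-T23. Gbp2 was at 22492 ± 295 in tumours, 731 ± 22.3 in 2D culture and 1296 ± 124 in the bioink. C3, the central complement component, went from 10528, 11049 and 10823 in tumours to 6, 10 and 8 in 2D culture, but stood at 3161, 3980 and 3574 in the bioink, log2 8.65 above 2D culture (adjusted p = 4.1e-10). Serping1, the C1 inhibitor, was at 1699 ± 77.3, 27.3 ± 5.03 and 591 ± 56.1. Fkbp5, a glucocorticoid-induced chaperone, was the one called higher than tumours in both cultures, with log2 differences of 1.68 and 1.16. In the bioink against 2D culture 7 of these 12 were higher and 1, Fkbp5, lower, and at equal column sums 7 and 0. Of all tested genes 27.0% were higher there and 32.2% lower.

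The ischaemia-type genes split evenly in 2D culture against tumours, with 4 of 11 tested higher and 4 lower, and were 5 higher and 2 lower in the bioink against tumours, and 4 higher and 3 lower between the cultures (6 and 3, and 5 and 3, without bioink replicate 1). Of all tested genes 54.3%, 64.4% and 59.2% were called in these comparisons. Ptgs2, the inducible cyclooxygenase, was at 2071, 1890 and 1894 in tumours, 77, 106 and 62 in 2D culture and 2920, 2181 and 2400 in the bioink. It was called between the cultures (log2 4.94, adjusted p = 3.3e-08) and not between bioink and tumours as deposited (adjusted p = 0.112), though it was called higher under each other scaling, at log2 0.51 to 0.61, and without 2D replicate 2 (adjusted p = 0.0373). Cd109, a membrane protein that binds TGF-beta, rose in both cultures by log2 1.91 and 1.87, and the co-receptor for LPS, Cd14, fell in both, from 5071 ± 220 to 23 ± 8.19 in 2D culture and 292 ± 61.6 in the bioink. Several of these genes are also made by myeloid cells, which differed between the groups. Summed over 10 microglia markers, the level was 19798 to 20637 in tumours, 915 to 1016 in 2D culture and 1541 to 1627 in the bioink, where Fcrls was listed at 0. In each culture 9 of the 10 were called lower than in tumours (8 in the bioink without replicate 1). Of all tested genes 27.0% were lower in 2D culture and 37.3% in the bioink. Over 10 macrophage markers it was 27344 to 27834, 156 to 177 and 294 to 432, with Ly6c2 listed at 0 in both cultures and Adgre1 and F13a1 in 2D culture. All 10 were called lower than tumours in 2D culture and 9 in the bioink. Ccr2 was at 48, 43 and 51 in tumours and 111, 31 and 40 in the bioink. Against 2D culture 8 were higher and 1 lower in the bioink (3 and 1 after quantile normalization), where 27.0% and 32.2% of all tested genes were. The part of myeloid cells in the result was not tested.

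**Figure D3:**
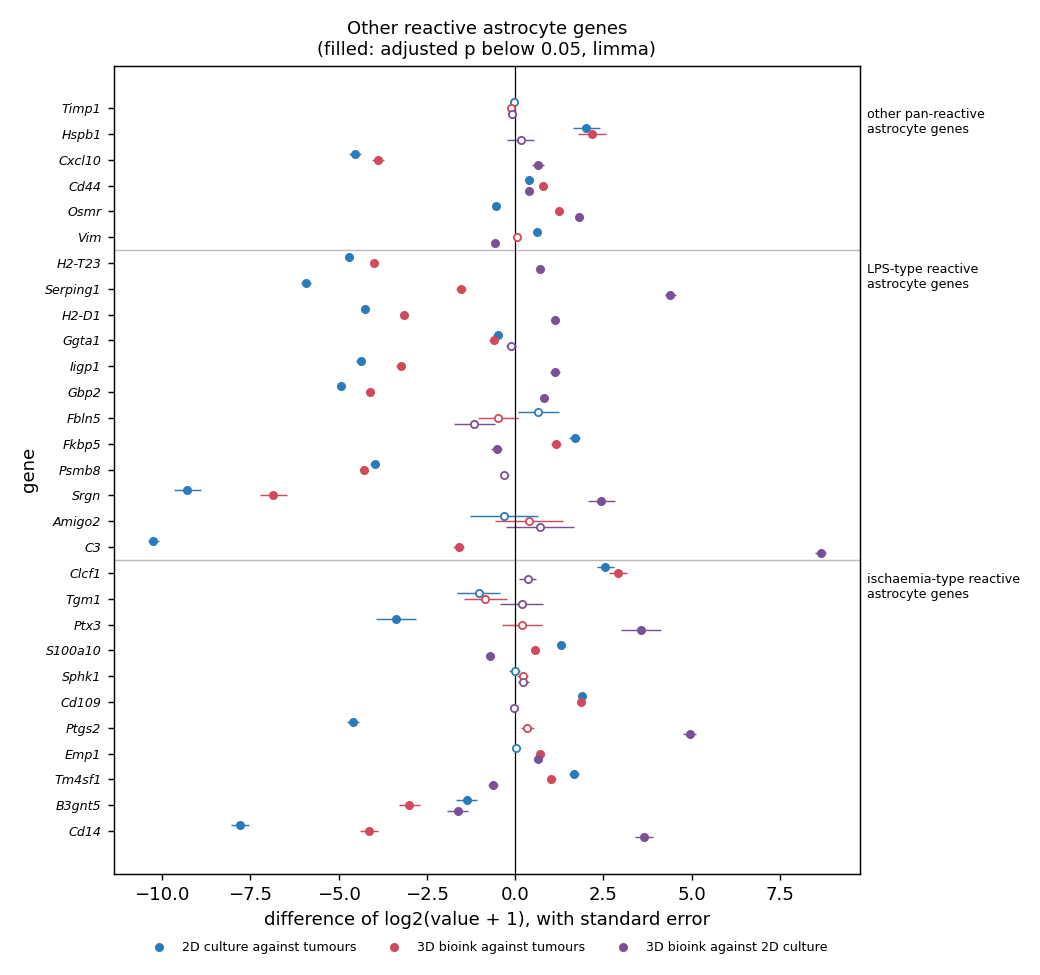
Difference of mean log2(value + 1), with its standard error, for the 29 tested genes of the 3 other reactive astrocyte lists, in the 3 comparisons, with filled points for limma adjusted p under 0.05. Most LPS-type genes lie left of 0 in both cultures against tumours, and C3 lies farthest right in the bioink against 2D culture, at 8.65.

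The systemic acute-phase genes, whose protein products rise in plasma during inflammation, were higher in the bioink than in 2D culture. Of 22 such genes 10 were tested, and Saa2, Fga and Apcs, products of the liver, were listed at 0 in all 9 libraries. All 10 tested genes were called higher in the bioink than in 2D culture, with a median log2 difference of 3.97, and 8 of 10 without bioink replicate 1. Of all tested genes 27.0% were higher there and 32.2% lower. Against tumours 5 were higher and 2 lower in the bioink (4 and 2 without that library), where 27.1% and 37.3% of all tested genes were. In 2D culture 2 were higher and 6 lower than in tumours (27.3% and 27.0% of all tested genes). Saa3, the inflammatory serum amyloid A of mouse tissues, was at 77, 13 and 26 in tumours, 0, 9 and 0 in 2D culture and 579, 533 and 549 in the bioink (log2 4.17 above tumours, adjusted p = 0.00247). Haptoglobin, Hp, which binds free haemoglobin, was at 13, 51 and 35, then 0, 2 and 0, then 89, 261 and 214. Lbp, the LPS-binding protein, rose in both cultures, with 536 ± 36.7 in tumours, 1192 ± 54.4 in 2D culture and 2398 ± 93.2 in the bioink. C4b, complement component C4, was instead highest in tumours, at 52517 ± 1317, against 168 ± 37.8 in 2D culture and 5336 ± 280 in the bioink. C3 belongs to this list as well as to the LPS-type one, and Ptx3, a pentraxin, to this and the ischaemia-type list.

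**Figure D4:**
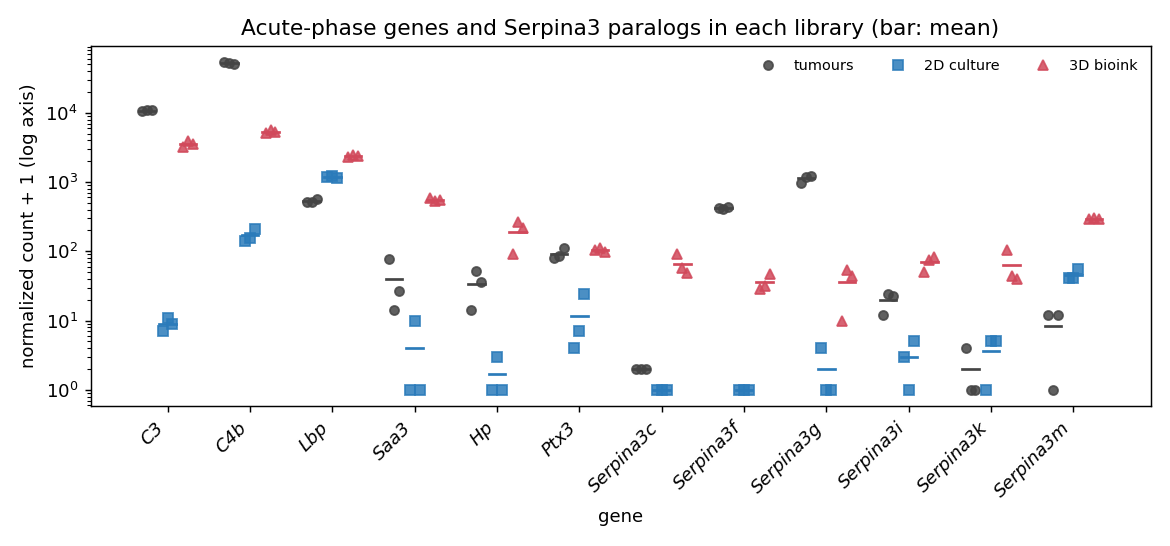
Normalised count plus 1 (log axis) of 6 systemic acute-phase genes and 6 Serpina3 paralogs in each library, with a bar at the mean of a group. The bioink libraries lie above the 2D libraries for each gene shown, and C3, C4b, Serpina3f and Serpina3g have their tumour libraries highest.

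The cytokines known to induce these genes were mostly highest in tumours. Of 13, 10 were tested, with 1 higher and 8 lower in 2D culture against tumours, 3 higher and 6 lower in the bioink against tumours, and 7 higher and 0 lower in the bioink against 2D culture. Of all tested genes 27.3% and 27.0%, 27.1% and 37.3%, and 27.0% and 32.2% were higher and lower in these comparisons. Il1b, interleukin 1 beta, was at 8845, 8704 and 8358 in tumours, 1, 0 and 0 in 2D culture and 8, 3 and 2 in the bioink. Tnf, tumour necrosis factor, was at 2473, 2492 and 2416, then 1, 0 and 2, then 9, 3 and 4, and Osm, oncostatin M, was at 1959, 1923 and 1649 in tumours and no more than 11 in any culture library. The calls of Il1b and Tnf between the cultures rest on these few counts and were lost with a pseudocount of 10 (adjusted p = 0.0659 and 0.0766) or after quantile normalization (0.197 and 0.613). C1qa, a complement subunit that acts with interleukin 1 alpha and Tnf on astrocytes, was listed at 0 in 2D culture and was at 19, 12 and 3 in the bioink, against 10750, 9620 and 9084 in tumours.

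The IL-6 family members Lif and Il11 were highest in the bioink. Lif, leukaemia inhibitory factor, was at 505, 388 and 366 in tumours, 165, 175 and 134 in 2D culture and 955, 803 and 817 in the bioink, called in all 3 comparisons (log2 -1.40, 1.04 and 2.44). Il11 was at 33, 35 and 71, then 67, 38 and 47, then 326, 306 and 323, log2 2.84 above tumours (adjusted p = 3.55e-05). Il6 itself was low, at 63, 11 and 35 in tumours, 0, 3 and 0 in 2D culture and 69, 23 and 54 in the bioink, where it was not called against tumours (adjusted p = 0.545).

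Of 24 receptors and transducers of these cytokines 23 were tested. Against tumours 3 were higher and 17 lower in 2D culture (27.3% and 27.0% of all tested genes), and 6 higher and 13 lower in the bioink (27.1% and 37.3%). Against 2D culture 15 were higher and 1 lower in the bioink, the one being Il6st, at 2622 ± 129 against 2973 ± 32.7, a call that was lost under every other scaling (adjusted p = 0.541 to 0.847) and without bioink replicate 1 or any one 2D library (0.0606 to 0.081). Without bioink replicate 1 the counts were 16 and 0. Of all tested genes 27.0% were higher and 32.2% lower in the bioink than in 2D culture. Stat3 was at 9312, 9324 and 9092 in tumours, 2166, 2405 and 2201 in 2D culture and 4806, 4848 and 4722 in the bioink, so that the bioink lay between the other groups (log2 -0.95 against tumours and 1.09 against 2D culture, adjusted p = 1.94e-07 and 1.14e-07). Socs3, the feedback inhibitor that Stat3 induces, was at 10126 ± 472, 481 ± 61.5 and 1831 ± 170. The NF-kappaB targets Nfkbia, its inhibitor, and Nfkbiz, a nuclear cofactor needed for Lcn2 induction, had the same order. Nfkbiz was at 10017 ± 293 in tumours, 303 ± 45.4 in 2D culture and 2800 ± 24.8 in the bioink, log2 3.22 above 2D culture (adjusted p = 7.88e-09). Cebpb and Cebpd, C/EBP factors of the acute phase, were called higher in the bioink than in 2D culture, by log2 1.68 and 1.26, and in the bioink Cebpd was not called against tumours as deposited (log2 -0.03, adjusted p = 0.763) but was higher at equal column sums (log2 0.23, adjusted p = 0.0414). Il1r1, the interleukin 1 receptor, was at 26, 25 and 15, then 17, 24 and 21, then 104, 87 and 145, log2 2.30 above tumours (adjusted p = 0.000232). In the bioink Stat3, Socs3 and Nfkbiz were thus below their tumour levels, while Osmr, Il1r1 and Il6st were above theirs (log2 1.25, 2.30 and 1.08). The part of these genes in the levels of Lcn2, Serpina3n and Cp was not tested.

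**Figure D5:**
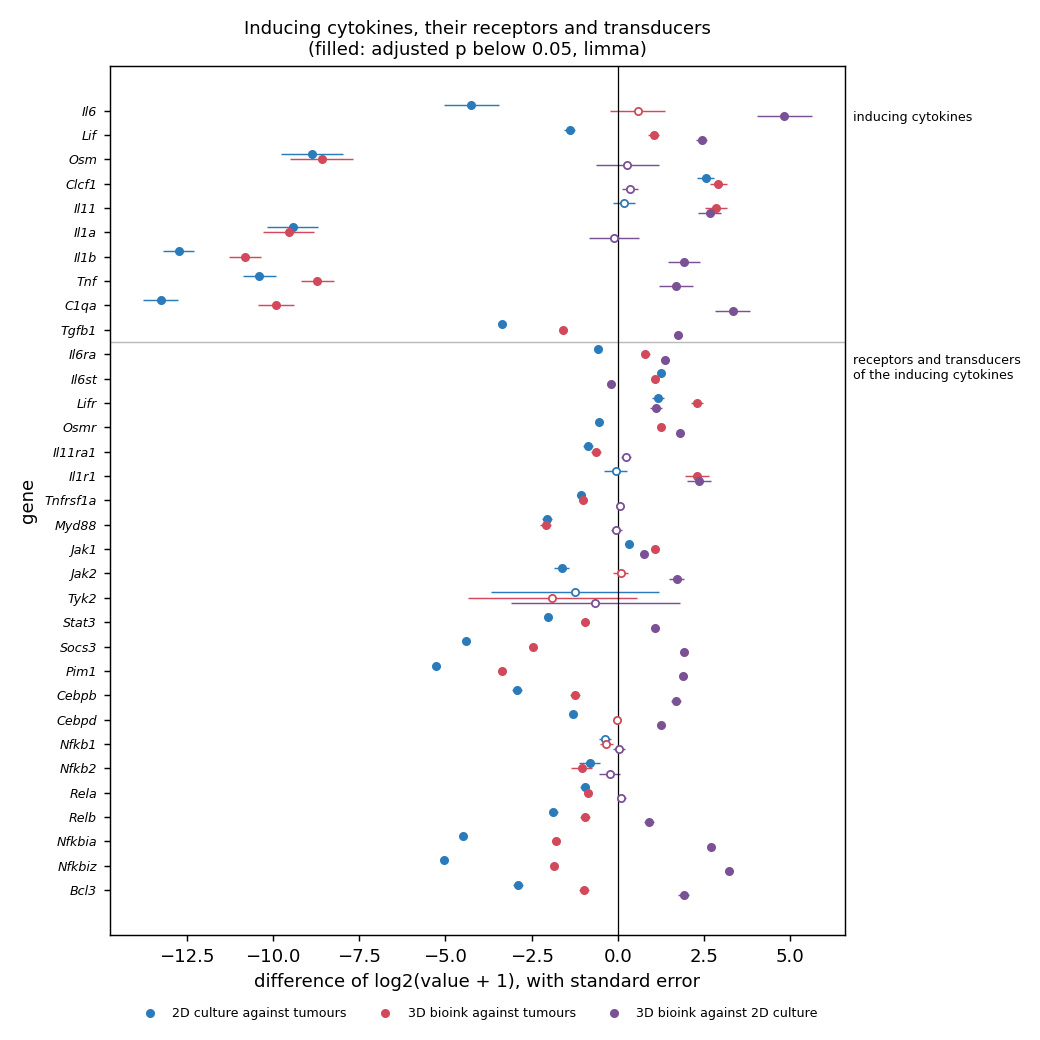
Difference of mean log2(value + 1), with its standard error, for 10 inducing cytokines and 23 of their receptors and transducers in the 3 comparisons, with filled points for limma adjusted p under 0.05. Il1b, C1qa, Tnf, Il1a and Osm lie far left of 0 in both cultures against tumours, and Lif, Il11, Osmr and Il1r1 lie right of 0 in the bioink against tumours.

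The markers of astrocytes were checked in each group, since no library holds sorted cells. Summed over 17 markers, the level was 9611 to 10402 in tumours, 10681 to 11016 in 2D culture and 12488 to 12958 in the bioink. Most of that sum came from Gja1, Glul, Aldoc and S100b, which glioma and other cells also express, so it does not measure astrocytes alone. In 2D culture against tumours 6 of the 15 tested markers were higher and 4 lower, in the bioink against tumours 8 and 3, and in the bioink against 2D culture 7 and 1 (7 and 4, 8 and 3, and 9 and 0 without bioink replicate 1). Of all tested genes 27.3% and 27.0%, 27.1% and 37.3%, and 27.0% and 32.2% were higher and lower in these comparisons. Some markers of mature astrocytes were low in every group: Aqp4, the water channel of astrocyte endfeet, was at 7 to 15 in all 9 libraries, Gjb6 was at 5 or below and Mlc1 at 15 or below, both listed at 0 throughout 2D culture. Slc1a3, the glutamate transporter, was at 483, 605 and 555 in tumours, 63, 65 and 85 in 2D culture and 212, 248 and 207 in the bioink, the same order as Gfap, and was called in all 3 comparisons (log2 -2.94, -1.30 and 1.64). Others were highest in the cultures: Sox9, a glial transcription factor, was at 38, 23 and 33 in tumours, 125, 121 and 166 in 2D culture and 413, 580 and 516 in the bioink, and Fgfr3, a growth factor receptor, at 540, 546 and 511, then 1341, 1343 and 1162, then 2224, 1983 and 1720. Slc4a4, a bicarbonate transporter, was highest in 2D culture, at 432, 383 and 495, against 17, 2 and 17 in tumours and 147, 134 and 132 in the bioink. Which cells of the mixtures made the 7 transcripts was not measured, so the name reactive astrocyte genes is the literature's.

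Among markers of the other cell types, most of those of fibroblasts were higher in the bioink. The summed level of 8 fibroblast markers was 13030 to 13828 in tumours, 11902 to 12619 in 2D culture and 23874 to 25736 in the bioink. Col3a1 made up most of the tumour sum, at 12680, 11957 and 11907 there and 8730, 8790 and 8091 in the bioink. Against tumours 6 of the 8 were higher and 1 lower in the bioink (5 and 1 without bioink replicate 1), where 27.1% and 37.3% of all tested genes were. All 8 were called higher in the bioink than in 2D culture, where 27.0% of all tested genes were higher and 32.2% lower. Dcn and Lum passed the filter through their bioink values alone, and without bioink replicate 1, where 7 were tested, all 7 were called higher than in 2D culture. Of these Dcn, decorin, was at 1, 0 and 11 in tumours, 3, 4 and 0 in 2D culture and 329, 405 and 389 in the bioink, close to the values of Steap4. Over 10 pericyte and mural markers the sum was highest in tumours, at 4385 to 4837. It was 1185 to 1201 in 2D culture, where Kcnj8 was listed at 0, and 2884 to 3050 in the bioink. Most of the tumour sum came from Anpep, at 2964, 3054 and 2646 there, against 307, 416 and 358 in the bioink. Against tumours, 4 of the 8 tested markers of this list had a higher call in the bioink and 2 a lower one, where 27.1% and 37.3% of all tested genes did. Without bioink replicate 1 these counts were 4 and 3. Rgs5 was at 39, 55 and 43 in tumours and at 124, 140 and 132 in the bioink. Over 10 endothelial markers the sum was 7196 to 7592 in tumours, 5728 to 6088 in 2D culture and 5539 to 7985 in the bioink. The bioink range overlapped both others. The top of that range was bioink replicate 1, in which Pecam1 was at 5407, against 3162 and 3030 in the others. Erg was listed at 0 in tumours and in 2D culture. The part of these cells in the levels of the 7 genes was not tested.

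Genes with the most similar pattern were found by Pearson's r of log2(value + 1) over the 9 libraries, among tested genes with a mean of at least 100 in their highest group. The libraries fall into 3 groups, so r mostly reflects the group levels, and it is given as a description. For Lcn2 the nearest were Nr1d1, Osmr and Plagl1 (r = 0.998 for each), of which Osmr is also on the pan-reactive list. For Serpina3n they were Kmt2c, Jmjd1c and Tmem63b (0.999, 0.999 and 0.998), and for Cp they were Cspg4, Rasgrf1 and Bach1 (0.998 for each). For Steap4 they were Dcn, Slc47a2 and Mmp3 (0.994, 0.986 and 0.983), and Mmp3, stromelysin, had means of 10.0 in tumours, 15.0 in 2D culture and 5823 in the bioink. For Gfap they were Arrdc4, Gbp9 and Atp1b2 (0.996, 0.995 and 0.994), the last an astrocyte marker. For Aspg they were Twsg1, Ptpn12 and Gnpda2, and for S1pr3 they were Stxbp4, Sccpdh and Atrnl1 (0.972 to 0.988 over these 6 genes). No gene was among the nearest 3 of more than 1 of the 7.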

How the data were processed

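Whole-mixture RNA of 9 libraries was sequenced, 3 per group, from 25 to 75 ng RNA and 14 PCR cycles, as the labels' protocols state. The authors deposited one table of normalized read counts rounded to whole numbers, used here as a score with no fixed unit; the submitters' processing notes name kallisto, RSEM, DESeq2 1.24.0, DESeq and build mm10, with no role given. Depth is therefore unknown, and no counting intervals were computed. The 7 genes were matched by symbol, and the values were tested as log2(value + 1) with limma 3.58.1 in R 4.3.3 (lmFit, eBayes with trend). One model covered all 9 libraries, with genes of mean at least 10 (13773 of 20778; 2865 were 0 throughout) and Benjamini-Hochberg adjustment over them; the procedure was tested on simulated data. The 7 genes, the lists and the tests were chosen with earlier results of these data known. Named genes were the 7, the called genes with the largest differences in each list (higher group's mean 50 or more), a fixed set of pathway genes, and the 3 genes most correlated with each of the 7; other genes and single cell type markers were chosen after their values were seen. Lengths for values per kilobase are medians of CCDS transcripts in GENCODE vM21 (19950 symbols, 96.0%), which also gave the coordinates. Nothing states that replicates came from separate cultures or animals, so the p-values reflect only how far these libraries scatter, and that scatter may be technical. The labels do not state that replicate numbers pair the libraries. Deviations of same-numbered libraries correlated at -0.0326 to 0.0797 and those of differently numbered ones at -0.0635 to 0.0522. With 3 libraries per group these values cannot show whether libraries shared a donor or batch. The alternatives tried were other pseudocounts, filters and scalings, array weights, a replicate block, fits on the 2 groups compared and leaving out each library.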

Additional observations from a re-analysis of the deposited data

How the results depend on the processing

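The counts of called genes stayed within 1.5 times under every alternative run: 6811 to 8034 in 2D culture against tumours (7474 as reported), 8079 to 9536 in the bioink against tumours (8869) and 7451 to 9766 in the bioink against 2D culture (8148). Leaving out 1 library gave 6631 to 8059, 8240 to 8728 and 7314 to 8210. Calls among the 29 other reactive astrocyte genes were 22 to 23, 21 to 24 and 19 to 20, and 23, 21 to 23 and 19 to 20 when 1 library was left out. With the replicate number as a block, 7357, 8795 and 8039 genes were called, though the labels do not state that these numbers pair the libraries. Equal column sums moved the median log2 difference of all genes from -0.115 to 0.144 in the bioink against tumours and from -0.018 to 0.168 against 2D culture, and the share of calls that were higher from 42.1% to 56.1% and from 45.6% to 57.8%; quantile normalization moved the share in 2D culture against tumours from 50.3% to 59.5% and the median to 0.179. Of the values of the 7 genes under alternatives, 359 moved by less than the replicate spread, 33 moved by more, and 1 changed sign: S1pr3 in the bioink against 2D culture, -0.17 after quantile normalization. Among the other named genes 4 values changed sign: Cebpd in the bioink against tumours (0.23) and S1pr2 there (0.045) at equal column sums, and Il6st in the bioink against 2D culture after quantile normalization (0.048) and at equal column sums (0.015). Aspg and S1pr3 have no value with a filter mean of 50. The depth of the libraries is unknown, so low values such as those of Aspg have no counting error here.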
